A study of Homo sapiens with 6 samples.

Results

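The replication-dependent histone genes encode the core histones H2A, H2B, H3 and H4 and the linker histone H1 that package newly made DNA. They were taken from the count table by their symbols, in the old or the current naming (H1-1 to H1-6, H2AC, H2BC, H3C and H4C followed by a number), which gave 66 of 26490 genes. Of these, 23 averaged 10 or more counts over the 6 libraries, and all 23 were tested. The other 43 comprised 30 genes averaging 1 to under 10 counts, 6 genes at 0 in every library (H1-1, H1-6, H2AC1, H2BC1, H4C6 and H4C7), and 7 between those limits. The threshold fell in a crowded range, with H2BC9 just inside it at a mean of 12.8 counts and H3C8 just outside it at 9.5.

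Cells make these mRNAs mainly in S phase, when DNA is copied. Unlike other mRNAs, they usually end in a short stem-loop instead of a poly(A) tail. The stem-loop is bound by SLBP, and the end is formed by cleavage guided by the U7 small nuclear RNP, while NPAT drives transcription of the genes in histone locus bodies. Some members also have polyadenylated forms, which arise from sites beyond the stem-loop. Replication-independent variants such as H3-3A and H2AZ1 are made throughout the cell cycle from polyadenylated mRNAs. A poly(A) selection keeps polyadenylated RNA and depletes RNA that ends in a stem-loop.

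The study sequenced RNA of SW403, an established human colon adenocarcinoma cell line, grown for 24 h in DMEM with serum and no treatment, with total RNA as the labelled molecule. The control group held 3 libraries of cells with normal IRS2 expression, and the knockdown group 3 libraries of cells with lowered IRS2, an adaptor protein of the insulin and IGF1 receptors. The titles say knockdown and the descriptions KO, and the method is not given. Nor is it given whether replicates are separate lines or parallel cultures of 1 line, so p-values measure only the spread between these samples. How RNA was selected for the libraries is likewise not given.

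Control libraries held 11816973 to 12585013 counts and knockdown libraries 14329348 to 18114656, so every knockdown library was the deeper. IRS2 stood at 32.4, 34.8 and 32.2 CPM (counts scaled to the library total) in control and 13, 12.3 and 11.9 in knockdown, a log2 fold change of -1.39 ± 0.07 (SE). Of 12 colon epithelial markers 7 averaged 10 or more counts, and KRT20, CDX1 and CEACAM5 were listed at 0. CDH1 and LGALS4 averaged 2.5 and 0.5 counts. Among the 7, HNF4A (0.69) and CDX2 (0.14) rose and KRT19 (-0.47) and EPCAM (-0.21) fell on the log2 scale. The summed level of 10 markers of fibroblasts, immune cells and endothelium was 24, 8.52 and 7.36 CPM in control and 5.51 to 6.46 in knockdown libraries. The high value of control library 1 came with COL1A1 at 193 counts and COL1A2 at 86, while PECAM1 was at 0. COL1A1 was the single gene of the 10 that passed the expression filter, at -1.15 (edgeR adjusted p = 0.0029), and its part in the results below was not tested beyond leaving that library out.

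The stem-loop at the end of the coding unit is the feature that sets these genes apart from other mRNAs, and it is shown here for members with the highest counts and for examples of other forms. In GENCODE version 44 lifted to GRCh37, 61 of the 66 genes had a transcript under the same symbol, and all 61 canonical transcripts had 1 exon. The canonical transcripts ran from 386 to 2224 nt, with a median of 492 nt. Of the 61, 51 lay on chromosome 6 and 10 on chromosome 1. The pattern was a stem of GGNNNT and ANNNCC whose 6 positions pair (G with T included) around a loop NTNN of 4 nt. Searched on the coding strand within 150 nt after the stop codon of any annotated transcript, it was found in 58 of the 61. It was found in the canonical transcript of 13 of 18908 other protein-coding genes, or 0.0688%, among them H2AX, a variant that also has a stem-loop form. The stem-loop began 22 to 67 nt after the stop codon, with a median of 36 nt. Capitals mark the 16 bases of the stem-loop, written as DNA on the coding strand, with flanking bases in lower case.
H2BC12, chr6:27114145-27114160, minus strand: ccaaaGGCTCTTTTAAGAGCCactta
H1-2, chr6:26055972-26055987, minus strand: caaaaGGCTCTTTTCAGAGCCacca
H2AC6, chr6:26124897-26124912, plus strand: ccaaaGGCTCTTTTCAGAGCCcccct
H2BC5, chr6:26158815-26158830, plus strand: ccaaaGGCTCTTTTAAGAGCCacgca
H4C14, chr1:149804596-149804611, plus strand: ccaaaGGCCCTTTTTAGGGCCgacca
H2AC19, chr1:149823141-149823156, plus strand: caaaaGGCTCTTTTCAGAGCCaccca
H4C3, chr6:26104545-26104560, plus strand: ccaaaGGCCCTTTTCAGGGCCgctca
H2AC11, chr6:27101294-27101309, plus strand: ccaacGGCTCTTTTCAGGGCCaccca
H2AC20, chr1:149858941-149858956, plus strand: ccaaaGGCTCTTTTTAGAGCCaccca
The form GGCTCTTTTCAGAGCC, seen here in H1-2, H2AC6 and H2AC19, was that of 36 of the 58 genes. Among the 23 genes averaging 10 or more counts, 20 had a stem-loop by the pattern, and 9 of these had the commonest form.

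The summed level of all 66 genes was lower in every knockdown library than in every control library. It was 149, 144 and 151 CPM in control (148 ± 3.53, SD, n = 3) and 76.6, 83.4 and 88.3 CPM in knockdown (82.8 ± 5.87, SD, n = 3), a ratio of 0.56. In bulk libraries, fewer cells in S phase and less histone mRNA per cell cannot be told apart. The 23 genes with at least 10 counts held 92.5% of the 9580 counts, and H2BC12 alone held 23.8%. All 5 histone families were lower in each knockdown library. H1 genes summed to 20.3 ± 0.325 CPM in control and 9.34 ± 1.18 in knockdown (SD, n = 3). H2A genes summed to 34.9 ± 0.633 and 17.7 ± 2.21, and H2B genes, the most abundant family, to 61.9 ± 2.14 and 38.3 ± 3.19. H3 genes summed to 9.25 ± 0.939 and 5.1 ± 0.36, and H4 genes to 21.4 ± 0.535 and 12.4 ± 0.423. The ratio of knockdown to control thus ran from 0.461 for H1 to 0.619 for H2B. Genes on chromosome 6 and on chromosome 1 had ratios of 0.555 and 0.556.

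Of the 23 genes, 15 fell in knockdown and 0 rose by edgeR's quasi-likelihood test at an adjusted p under 0.05 (Benjamini-Hochberg over 13832 tested genes). Over all tested genes 19.2% were called lower and 19.3% higher, against 65.2% lower among the 23. For 22 of the 23 the log2 fold change lay below 0. Its median was -0.74 over the 23 and 0 over all tested genes. Among tested genes with a transcript of at most 1000 nt and an average of 10 to 400 counts, a range that holds all but 1 member with a length, 16.7% were called lower and the median was -0.07. At an unadjusted p under 0.05, 17 members were lower and 0 higher. The share of all tested genes at that limit was not counted. The Wald test of DESeq2 called 9 lower and 0 higher, beside 13.4% of all genes lower. With limma voom 14 were called lower and 0 higher, beside 2633 of all tested genes lower. Leaving out control library 1, which stood apart in collagen genes, left 13 called lower, beside 2288 of all tested genes. For 18 of the 23, every control library lay above every knockdown library, as it did for 28.8% of all tested genes. The groups overlapped for the other 5, which were H2AC18, H4C15, H2BC4, H2AC20 and H2BC9.

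**Figure D1:**
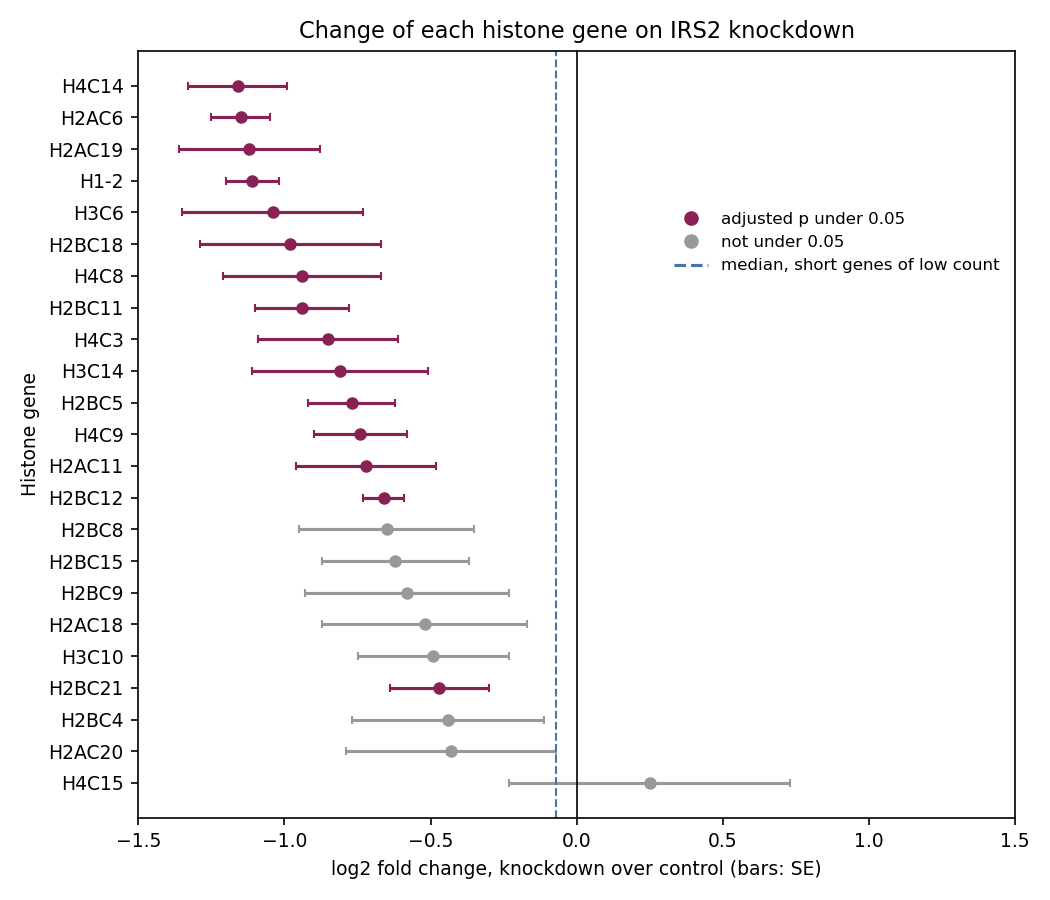
Log2 fold change of knockdown over control (horizontal axis) for the 23 histone genes that averaged 10 or more counts, with bars of 1 SE. Coloured points have an adjusted p under 0.05, and the dashed line is the median of tested short genes of low count at -0.07. All points but H4C15 lie left of 0.

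The linker histone gene H1-2 and the core histone gene H2AC6 were among the largest and most precisely measured falls. H1-2 (ENSG00000187837, chr6:26055968-26056698), whose protein binds DNA between nucleosomes, was at 19.6, 20 and 18.7 CPM in control and 7.89, 9.61 and 8.89 CPM in knockdown. The lowest control library was thus far above the highest knockdown library. Its log2 fold change was -1.11 ± 0.09 (SE, edgeR adjusted p = 1.89e-08). H2AC6 (ENSG00000180573, chr6:26124373-26139344), which encodes an H2A protein, was at 15.9, 15.6 and 15.6 CPM in control and 7.47, 6.39 and 6.96 CPM in knockdown. The control libraries differed by less than 1 CPM, and all lay above the knockdown libraries. Its log2 fold change was -1.15 ± 0.1 (edgeR adjusted p = 2.7e-08). H1-2 was the only H1 gene with at least 10 counts, since H1-3, H1-4 and H1-5 had means of 1.3, 6.8 and 1.5 counts.

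In the H2A family, 3 of 5 genes fell (60%), beside 19.2% of all tested genes, with a median log2 fold change of -0.72. H2AC11 was at 2.86, 2.87 and 3.72 CPM in control and 1.4, 1.64 and 2.48 CPM in knockdown. The groups were separate by less than 1 CPM, with a log2 fold change of -0.72 ± 0.24 (edgeR adjusted p = 0.0217). H2AC20 was at 1.43, 1.19 and 1.44 CPM in control and 0.349, 1.35 and 1.16 in knockdown, so the groups overlapped, and the difference of -0.43 ± 0.36 did not pass the test. H2AC18 and H2AC19, known as duplicated copies, are described with the other copies.

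The H2B family held the most abundant member and 9 of the 23 genes. Of the 9, 5 fell (55.6%), beside 19.2% of all tested genes, with a median log2 fold change of -0.65. H2BC12 (ENSG00000197903, chr6:27114140-27114634) was at 35.5, 33.4 and 32 CPM in control and 19.2, 20.7 and 22.5 CPM in knockdown. All control libraries lay above all knockdown libraries, and the log2 fold change was -0.66 ± 0.07 (edgeR adjusted p = 5.56e-07). H2BC5 was at 7.15, 7.01 and 8.46 CPM in control and 3.49, 4.45 and 4.91 CPM in knockdown, a change of -0.77 ± 0.15 with no overlap (edgeR adjusted p = 0.000486). H2BC11 was at 5.96, 5.97 and 6.01 CPM in control, values almost the same, and at 3.49, 2.64 and 3.09 in knockdown. Its change was -0.94 ± 0.16 (edgeR adjusted p = 0.000122).

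The other H2B genes were measured less precisely. H2BC21 was at 6.2, 5.02 and 5.5 CPM in control and 3.07, 4.51 and 4.14 in knockdown, a change of -0.47 ± 0.17 (edgeR adjusted p = 0.0334). This call was lost under 6 alternative analyses, with adjusted p up to 0.146. H2BC18 was at 1.59, 1.11 and 1.86 CPM in control and 0.907, 0.586 and 0.773 in knockdown, a change of -0.98 ± 0.31 (edgeR adjusted p = 0.0185), and its call was lost under 4 alternatives. The annotated span of H2BC18 overlaps another gene, and that of H2BC4 overlaps H4C3. Whether counting used strand is not given, so reads of these overlapping genes cannot be told apart. H2BC15, H2BC8, H2BC9 and H2BC4 did not pass the test, with log2 fold changes of -0.62, -0.65, -0.58 and -0.44.

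The H3 and H4 families had few members above 10 counts. Of these, 2 of 3 H3 genes and 4 of 5 H4 genes fell, beside 19.2% of all tested genes. H4C9 was at 4.69, 5.17 and 5.75 CPM in control and 2.93, 3.05 and 3.15 in knockdown, so all control libraries were higher. Its log2 fold change was -0.74 ± 0.16 (edgeR adjusted p = 0.00141). H4C3 was at 3.18, 3.03 and 2.12 CPM in control and 1.26, 1.64 and 1.6 in knockdown, a change of -0.85 ± 0.24 (edgeR adjusted p = 0.00805). H4C8 was at 1.99, 2.23 and 1.61 CPM in control and 0.768, 1.11 and 1.05 in knockdown, a change of -0.94 ± 0.27 (edgeR adjusted p = 0.00986). H3C6, 1 of 3 annotated members without the stem-loop pattern, was at 1.27, 1.35 and 1.61 CPM in control and 0.698, 0.703 and 0.607 in knockdown. Its groups did not overlap, and its change was -1.04 ± 0.31 (edgeR adjusted p = 0.011). The calls of H4C8, H3C6 and H2AC11 were lost under 2, 2 and 4 alternatives. H3C10, at 1.95 to 2.55 CPM in control and 0.977 to 1.93 in knockdown, did not pass the test (-0.49 ± 0.26).

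**Figure D2:**
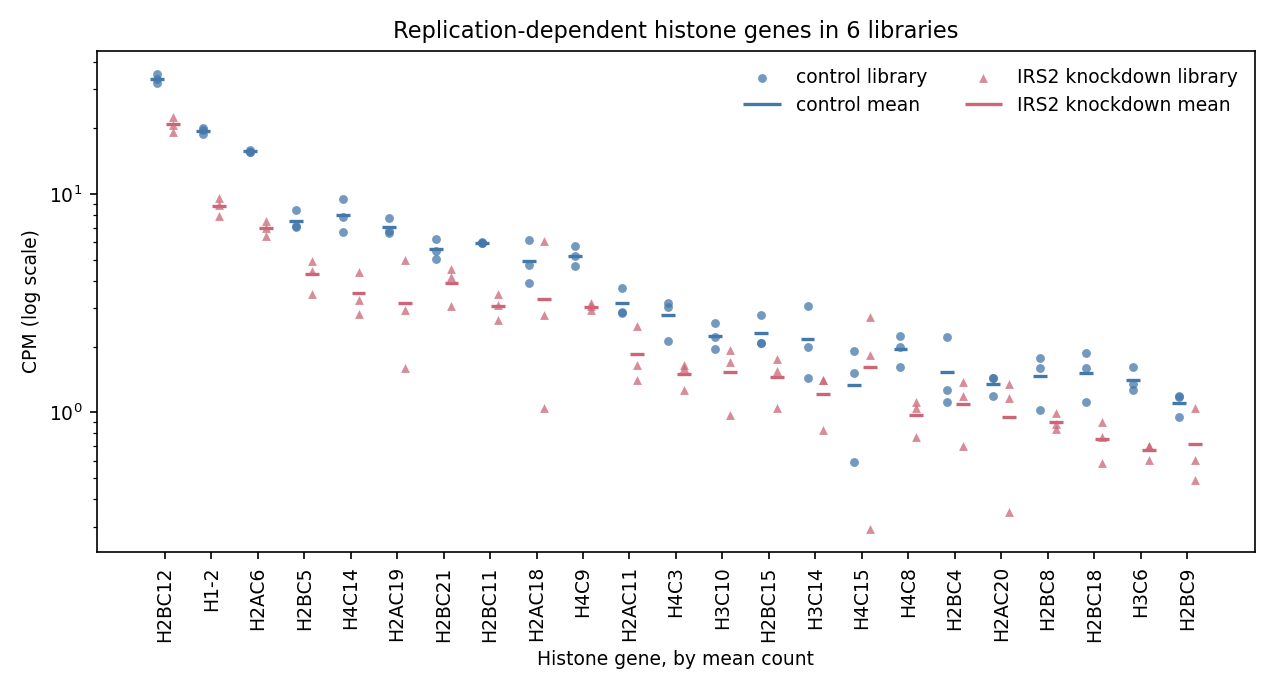
CPM (vertical, log axis) of the 23 histone genes (horizontal, by mean count). Points are libraries and short lines are the means of the 3 libraries of each group. H2BC12 is the highest in every library, at 32 to 35.5 CPM in control and 19.2 to 22.5 CPM in knockdown.

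Duplicated gene copies were counted unevenly within a pair, but their sums moved like the other members. H4C14 and H4C15 have identical canonical transcripts, and 99.2% of the 50-base words of H3C14 also occur in H3C15, so their separate values are uncertain. H2AC18 had no transcript of that name in the annotation, and its transcript was not compared with that of H2AC19. The RefSeq promoters of H2AC18 and H2AC19 share a run of 299 of 300 bases. H4C14 was at 98, 84 and 112 counts in control and 47, 75 and 51 in knockdown, while H4C15 was at 19, 24 and 7 in control and 39, 5 and 33 in knockdown. H4C14 fell by edgeR (-1.16 ± 0.17, adjusted p = 3.04e-05), and H4C15 alone among the 23 tested members lay above 0 (0.25 ± 0.48, adjusted p = 0.729). Their sum was 9.3, 8.6 and 10.1 CPM in control and 6, 4.69 and 4.64 CPM in knockdown, with no overlap between groups. Summed before testing, the pair had a log2 fold change of -0.85 ± 0.14 (edgeR adjusted p = 5.66e-05).

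The split of H2AC18 and H2AC19 also differed between libraries, with H2AC18 taking 33.6% to 48.1% of the pair in control libraries and 48.8%, 17.5% and 79.1% in knockdown libraries. Taken alone, H2AC19 fell (-1.12 ± 0.24, edgeR adjusted p = 0.00115) and H2AC18 did not pass the test (-0.52 ± 0.35). The value of H2AC18 rested on single libraries. It was -1.37 without knockdown library 3 (edgeR adjusted p = 0.00115) and -0.08 without knockdown library 2 (edgeR adjusted p = 0.85), and -0.33 to -0.65 without any other library. The sum of the pair was 12.7, 11.6 and 11.5 CPM in control and 5.72, 6.04 and 7.67 in knockdown. The sums of the groups did not overlap, and the change was -0.84 ± 0.12 (edgeR adjusted p = 1.81e-05). For H3C14 and H3C15 the sums were 3.18, 2.87 and 3.05 CPM in control and 1.4, 1.88 and 1.66 in knockdown, a change of -0.84 ± 0.21 (edgeR adjusted p = 0.00395). H3C14 alone was at -0.81 ± 0.3 (edgeR adjusted p = 0.0412) and lost its call under 10 alternatives. With the 3 pairs summed, 15 of 21 units were called lower, beside 19.2% of all tested genes in the main test. The summing was chosen after the values of the copies were seen.

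**Figure D3:**
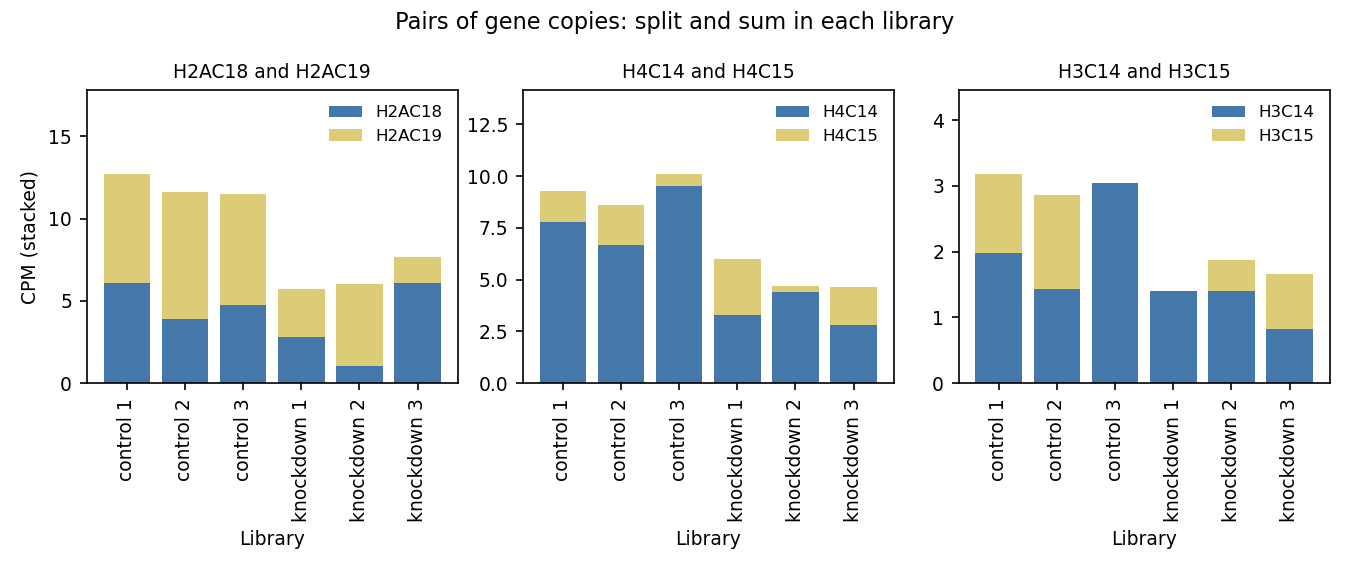
CPM (vertical axis, stacked) of the 3 pairs of copies in each library (horizontal axis), split by colour between the copies. The split varies between libraries, while the pair sums lie higher in every control library than in any knockdown library.

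The level of these genes beside other RNAs bears on the type of library. The 12 replication-independent variants summed to 3030 ± 41.1 CPM in control and 2870 ± 67.7 in knockdown (SD, n = 3), which was 20.5 and 34.7 times the sum of all 66 members. They include H2AX, which also has a stem-loop form, at means of 312 CPM in control and 281 in knockdown. Compared per length, as CPM per kilobase of canonical transcript (RPKM, mean of 6 libraries), the variants had a median of 126 and reached 537 for H2AZ1, a variant found at promoters. The 21 members with at least 10 counts and a length had a median of 3.88 RPKM, from 1.98 for H2BC9 to 55 for H2BC12, below the median of 8.56 RPKM for all tested genes. All 61 members with a length had a median of 0.61 RPKM. The small RNAs that carry no poly(A) tail had a median of 0.299 RPKM over 32 genes with a length, and 8 of the 39 listed, among them RN7SK, RMRP and RNU2-1, were listed at 0. Of the 39, 9 averaged 10 or more counts. The highest were RN7SL1 and RN7SL2, the signal recognition particle RNAs, at means of 435.3 and 395.2 counts. SCARNA12 and SNORD3B-1, at 8.25 and 5.77 RPKM, also lay above the median of 3.88 RPKM of the 21 members. The levels alone do not name the selection step, since no library of stated selection was available for comparison, and whether small RNAs were lost by size was not tested.

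**Figure D4:**
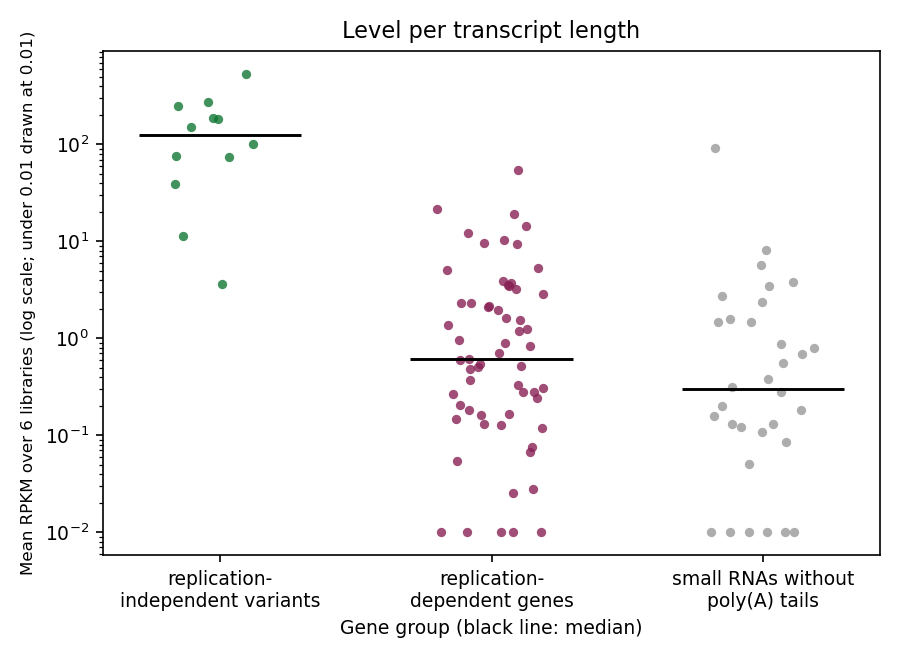
RPKM on a log axis, as the mean of 6 libraries, for histone members, replication-independent variants and small RNAs without poly(A) tails, with values below 0.01 drawn at 0.01 and black lines at the medians. The variants have a median of 126 RPKM and the 61 members 0.61.

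Members with an annotated longer end were counted more often. These counts are not scaled to length, and the part of the longer annotated sequence in this was not tested. In 13 members an annotated transcript ran at least 100 nt past the stem-loop, and 12 of these had AATAAA, the polyadenylation signal, in the last 50 nt. Of these 13, 11 reached a mean of 10 counts, with a median of 26.3, while 9 of the 45 other members with a stem-loop did, with a median of 3.0. H2BC12 and H1-2 are in the second group and yet had the highest counts, at means of 380.2 and 192.8. The 13 members with a long annotated end held 36.1% of all member counts. A list of 6 members with described polyadenylated forms, written from general knowledge (H1-2, H2AC6, H2BC4, H2BC5, H2BC12 and H2BC21), held 56% of all member counts. The fall was of like size with and without this property. Those 6 summed to 83.4 CPM in control and 45.8 in knockdown (ratio 0.549), and the other 60 to 64.3 and 37 (ratio 0.575). Among members with at least 10 counts, 7 of 11 with a long annotated end fell (63.6%, median -0.77). So did 7 of 9 with a stem-loop and no such end (77.8%, median -0.74), beside 19.2% of all tested genes. Those 9 include H1-2 and H2BC12, which are also on the list of 6, so the 2 properties divide the members differently. The difference between these sets was not tested.

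The promoters of the members shared short motifs. RefSeq promoters of 300 bases (250 before to 50 after the start, GRCh38.p14) matched 61 members. Searched on both strands, CCAAT was in 85.2% of them and in 35.7% of all 27305 promoters, and TATAA was in 95.1% and 21.1%. The octamer ATTTGCAT was in 14 of 17 H2B and 11 of 15 H2A promoters and in 1.8% of all promoters, but in 0 of 6 H1 and 0 of 12 H4 promoters. CCAAT was in 3 of 12 H4 promoters. Promoters of 2 members with high counts are printed with these motifs, on either strand and with overlapping matches merged, in capitals.
H2AC6, chr6:26123922-26124221, plus strand: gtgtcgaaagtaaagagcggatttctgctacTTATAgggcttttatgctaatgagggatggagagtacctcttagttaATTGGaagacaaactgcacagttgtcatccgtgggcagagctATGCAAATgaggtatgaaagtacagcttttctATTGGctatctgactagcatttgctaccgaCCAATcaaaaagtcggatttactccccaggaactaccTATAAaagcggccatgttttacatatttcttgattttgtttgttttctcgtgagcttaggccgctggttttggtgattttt
H2BC12, chr6:27146809-27147108, minus strand: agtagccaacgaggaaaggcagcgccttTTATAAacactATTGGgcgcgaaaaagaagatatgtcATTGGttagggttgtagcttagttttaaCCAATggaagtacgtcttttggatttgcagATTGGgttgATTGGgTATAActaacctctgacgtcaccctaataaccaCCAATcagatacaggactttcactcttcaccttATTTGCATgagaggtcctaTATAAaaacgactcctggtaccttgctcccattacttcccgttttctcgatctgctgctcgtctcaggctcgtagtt
By annotated gene spans, 10 pairs of neighbours start within 500 nt of each other on opposite strands. Of these, 9 had a ratio of levels per length. In 5 of the 9 the levels differed by less than 2-fold, and in 4 by 7.65-fold or more. The pair H3C12 and H2BC17 is counted by span alone. The canonical transcript of H3C12 (512 nt, stem-loop from position 27858098) starts more than 500 nt away. Some ratios rest on few counts, as for H2AC14 and H2BC14 (33.7-fold, means of 6.5 and 0.2). The ratio of H2BC21 and H2AC20 (1.09) rests on the 2224 nt of H2BC21, at means of 67 and 16.5 counts. H2BC12 and H2AC12 start 251 nt apart and stood at 55 and 0.27 RPKM. H2BC4 and H2AC6 start 219 nt apart and stood at 2.85 and 21.8 RPKM. H2BC11 and H2AC11, 248 nt apart, were closer, at 9.43 and 5.06 RPKM.

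The variants moved little in comparison with the members. Of 12, 6 fell (50%) and 2 rose (16.7%), beside 19.2% and 19.3% of all tested genes. The median log2 fold change of the variants was -0.07. The 3 with the smallest p were H3-3A, the replacement H3 of active genes, at -0.21 (edgeR adjusted p = 0.000127), MACROH2A2 at -0.4 (0.000131) and H2AZ1 at -0.16 (0.000454). CENPA, the centromeric H3, rose by 0.23 (edgeR adjusted p = 0.000486), and H2AX fell by 0.13 (0.00343). The largest fall among the variants was thus smaller than the fall of any of the 15 members that passed.

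Genes that make, process and degrade histone mRNA showed no fall of that size. Of 7 transcription genes 1 fell (14.3%), beside 19.2% of all tested genes. It was CASP8AP2 (a histone locus body protein, -0.18, edgeR adjusted p = 0.022). NPAT was at -0.05 (edgeR adjusted p = 0.561) and HINFP, an activator of H4 genes, at -0.17 (0.0535). Of 18 genes of 3′ processing 4 rose (22.2%) and 5 fell (27.8%), beside 19.3% and 19.2% of all tested genes, with a median of 0.04. SLBP, which binds the stem-loop, was at 130, 133 and 127 CPM in control and 121, 125 and 122 in knockdown, a difference of -0.05 that did not pass the test (edgeR adjusted p = 0.3). The U7-specific proteins LSM10 and LSM11 were at -0.03 and 0.08, and ZNF473 at 0.16, and none of the 3 passed. The smallest p in this list belonged to CSTF2 (0.23, edgeR adjusted p = 0.000318), SNRPB (-0.17, 0.000365) and SNRPG (-0.17, 0.0013). Of 14 genes of export, translation and decay 2 rose (14.3%) and 1 fell (7.14%). These were EXOSC10 (0.13), MIF4GD (0.28) and LSM1 (-0.28, edgeR adjusted p = 0.000858).

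Cell cycle genes also differed between the groups. Of 39 S phase genes 16 fell (41%) and 2 rose (5.13%), beside 19.2% and 19.3% of all tested genes. The median of their log2 fold changes was -0.07, and their summed level was 0.928 of control. PCNA, the sliding clamp of DNA replication, changed by -0.25 (edgeR adjusted p = 1.48e-06) and the helicase subunit MCM5 by -0.28 (3.75e-06). Of 26 mitosis genes 15 rose (57.7%) and 1 fell (3.85%), with a median of 0.16, among them KIF23 (0.42), AURKA (0.37) and KIF20A (0.33). The share of cells in each phase was not measured, and the part of these shifts in the fall of the histone genes was not tested.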

How the data were processed

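The authors deposited whole-number read counts per gene symbol for 6 libraries. The submitters' processing notes name STAR 2.6.1a, Salmon, DESeq2 and the build hg19. Their roles, the counter, the strand setting and the annotation are not given in the sources used here. A second deposited table of normalized values was not used here.

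Counts were tested with edgeR 4.0.16 in R 4.3.3 (TMM factors, filterByExpr, quasi-likelihood F-test, group as the only term), with Benjamini-Hochberg adjustment over all tested genes and a threshold of 0.05. An exact permutation test of 3 against 3 libraries cannot give a two-sided p below 0.1. Each standard error is the size of the log2 fold change over the root of its F statistic. CPM uses library totals. RPKM uses canonical transcripts of GENCODE version 44 lifted to GRCh37, which covered 96.3% of tested genes. The code was tested on simulated counts, where most changed genes were recovered and the share of false calls was above the threshold.

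The members and gene lists were chosen with earlier results of these data known. Named genes were IRS2, the 12 members of highest mean count, members past the threshold, those beside the limit of 10 counts, 6 named histone mRNA factors and the 3 genes of smallest p in each list. Some genes that this rule names are not reported here. Other genes named were chosen after their values were seen. Alternatives were other scaling factors, filters, DESeq2 1.42.0, limma 3.58.1 voom, thinning, a length and GC correction, a replicate block and leaving out each library. A gene at 0 may reach 0.166 to 0.254 CPM, the limit that a count of 0 allows (3 counts of the library total), for counting error only.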

Additional observations from a re-analysis of the deposited data

How the results depend on the processing

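The number of members called lower lay within 1.5 times of 15 in 16 of 18 alternatives, and 0 were called higher in any of the 18. It was 9 of the 10 members that averaged 50 or more counts, and 9 with the DESeq2 Wald test. Beside these stood 2339 and 1848 of all tested genes called lower. The number of members called lower was 10 to 15 when 1 library was left out, beside 2144 to 2598 of all tested genes. The median log2 fold change of the members ran from -0.87 to -0.65. Of 378 values of single members under alternatives, 344 kept their direction and side of the threshold, 28 lost the call, 3 gained it and 3 changed sign. All 3 sign changes were of H4C15, at -0.1 with limma voom and -0.29 to 0.76 when 1 library was left out. The cause was not tested. Correction for length and GC content raised the share of higher genes among all calls from 50.2% to 66.1% (66.2% with the block), and moved the median of all genes to 0.05 and of members to -0.65.

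With the replicate number as a block, 14 members were lower, beside 2407 of all tested genes, and H3C14 lost its call (-0.8, edgeR adjusted p = 0.0696). Deviations of same-numbered libraries correlated at 0.045, -0.011 and -0.098, so no pairing was seen. Whether same-numbered samples share a culture or batch is not given. Depth limits the members of lowest count: those averaging 12.8 to 18.3 counts had an SE of 0.3 to 0.36 on the log2 scale.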

Other observations

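Of 22 histone chaperones, which carry histones to DNA, 8 fell (36.4%) and 3 rose (13.6%) by edgeR's quasi-likelihood test, beside 19.2% and 19.3% of all tested genes, with a median log2 fold change of -0.06. NAP1L4, an H2A and H2B chaperone, was at 194, 191 and 198 CPM in control and 149, 154 and 155 CPM in knockdown, with no overlap between groups. HJURP, the chaperone of CENPA, was at 103, 104 and 107 CPM in control and 121, 129 and 125 CPM in knockdown, and so rose with CENPA. MCM2 was at 306, 313 and 309 CPM in control and 262, 259 and 260 CPM in knockdown.

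Among the small RNAs without a poly(A) tail, 9 were tested and 1 passed (11.1%), beside 38.5% of all tested genes called in either direction. RPPH1, the RNA of ribonuclease P, was at 34, 26 and 70 counts in control and 9, 12 and 8 counts in knockdown, a log2 fold change of -2.54 ± 0.38 (edgeR adjusted p = 2.84e-05). Control library 3 was the highest in RPPH1. The groups did not overlap, as for 28.8% of all tested genes with knockdown below control. RN7SL1 varied more within groups, at 404, 334 and 553 counts in control and 258, 334 and 729 in knockdown.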
